A study of Mus musculus with 9 samples.

Results

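The hematopoietic growth factor receptors examined here are 9 mouse genes chosen by their gene names, *Kit*, *Flt3*, *Csf1r*, *Csf3r*, *Csf2ra*, *Il3ra*, *Csf2rb*, *Csf2rb2* and *Il6ra*. All 9 were found among the 55401 genes of the deposited tables, and all 9 passed the filter on low values in every comparison. They were read in 9 RNA-Seq libraries, 3 per group, of cKit+CD11bdim splenocytes sorted by color code from mice transplanted with H9M cells. H9M cells are lineage-negative bone marrow progenitors of C57BL/6-Ly5.1 mice that overexpress *Meis1* and *Hoxa9* from a retrovirus. In all groups the cells carried a color-coding FGB-D vector and had been transplanted as a mix of clones with helper bone marrow into irradiated C57Bl6/J mice. For the pre-malignant group, clone 33BC-D, clone 38BC-D and clone 43BC-D were each sorted from mouse #15, which was taken early, while these clones were still minor. For the de novo expanded group the same color codes were sorted from mice at the leukemic endpoint, 38BC-D in mouse #13, 43BC-D in mouse #14 and 33BC-D in mouse #17. The stably expanded group is a single clone, 34BC-D, sorted from mice #13, #14 and #17. Mouse #15 and the time of sampling therefore cannot be told apart from the pre-malignant state, nor clone 34BC-D from the stably expanded state. The labels link a column of the tables to its group but not to its mouse or clone, so the numbers 1 to 3 given here to the libraries of a group follow their column codes, and p-values measure only the spread between these libraries.

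Growth factor receptors carry the signals that keep hematopoietic progenitors alive, drive their division and accompany their choice of lineage. KIT, FLT3 and CSF1R are related receptor tyrosine kinases, each activated by a ligand that joins a pair of receptor chains. KIT (the stem cell factor receptor) and FLT3 are known from stem and progenitor cells and CSF1R from monocytes and macrophages. CSF3R, the G-CSF receptor of the neutrophil lineage, signals through JAK kinases and STAT factors. CSF2RA and IL3RA are the ligand-binding chains for GM-CSF and IL-3 and share the beta chain CSF2RB, while the closely similar *Csf2rb2* of the mouse encodes a beta chain used for IL-3. IL6RA binds IL-6 and signals through gp130, the product of *Il6st*. Before transplantation the cells had been grown in IL-3, IL-6 and stem cell factor, the ligands of IL3RA, IL6RA and KIT, and KIT protein was also a gate of the sort.

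The 9 libraries held between 10379739 and 15551196 reads on genes, and each receptor had between 191 and 4694 reads in each library. Levels are given as CPM, the reads of a gene scaled to the same total of reads on genes in every library. No libraries of a group agreed within counting noise, as 50.3% to 69.6% of genes differed beyond it in each pair. De novo expanded library 3 stood apart from the other libraries of its group: its squared differences from libraries 1 and 2 were 109 times those of counting noise in both cases, against 28.1 times between libraries 1 and 2. The summed level of the myeloid progenitor markers (*Ptprc*, *Mpo*, *Elane*, *Prtn3*, *Ctsg*, *Cd34*, *Kit*, *Spi1*, *Cebpa*) was 21032 CPM there, against 3790 and 5239 CPM in the other 2 de novo expanded libraries. *Mpo* was the largest part of each sum. *Cd34* (46.6 against 108 and 164 CPM) and *Cebpa* (119 against 147 and 166 CPM) were lower in library 3 than in the other 2. *Itgam*, which encodes the CD11b of the sort, lay between 27.8 and 85.7 CPM, *Hoxa9* between 315 and 687 CPM and *Meis1* between 535 and 1099 CPM over all libraries. In these bulk samples, fewer cells of a type and less RNA per cell cannot be told apart.

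Per kilobase of exon, the receptors stood in a graded order over the 9 libraries. *Csf2ra* had the highest mean level, 40.0 ± 7.79 CPM per kilobase (SD, n = 9), followed by *Csf2rb* at 35.2 ± 5.24, *Csf3r* at 33.7 ± 13.5 and *Kit* at 26.2 ± 5.04. *Flt3* was at 19.8 ± 13.3, *Il3ra* at 13.8 ± 3.54, *Il6ra* at 12.7 ± 4.42, *Csf1r* at 12.5 ± 8.41 and *Csf2rb2* at 7.48 ± 1.78 CPM per kilobase. No neighbours in this order were separated in all 9 libraries, since each gene exceeded the next in 5 to 7 of them. The receptors differed in how far their level moved between libraries. The highest library exceeded the lowest 12.8 times for *Csf1r*, 7.41 times for *Flt3* and 4.24 times for *Csf3r* in CPM, and between 1.72 and 2.72 times for the remaining 6 receptors. Summed over the 9 receptors, the level was 1207 to 1300 CPM in the pre-malignant, 890 to 1192 CPM in the de novo expanded and 973 to 1049 CPM in the stably expanded libraries.

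**Figure D1:**
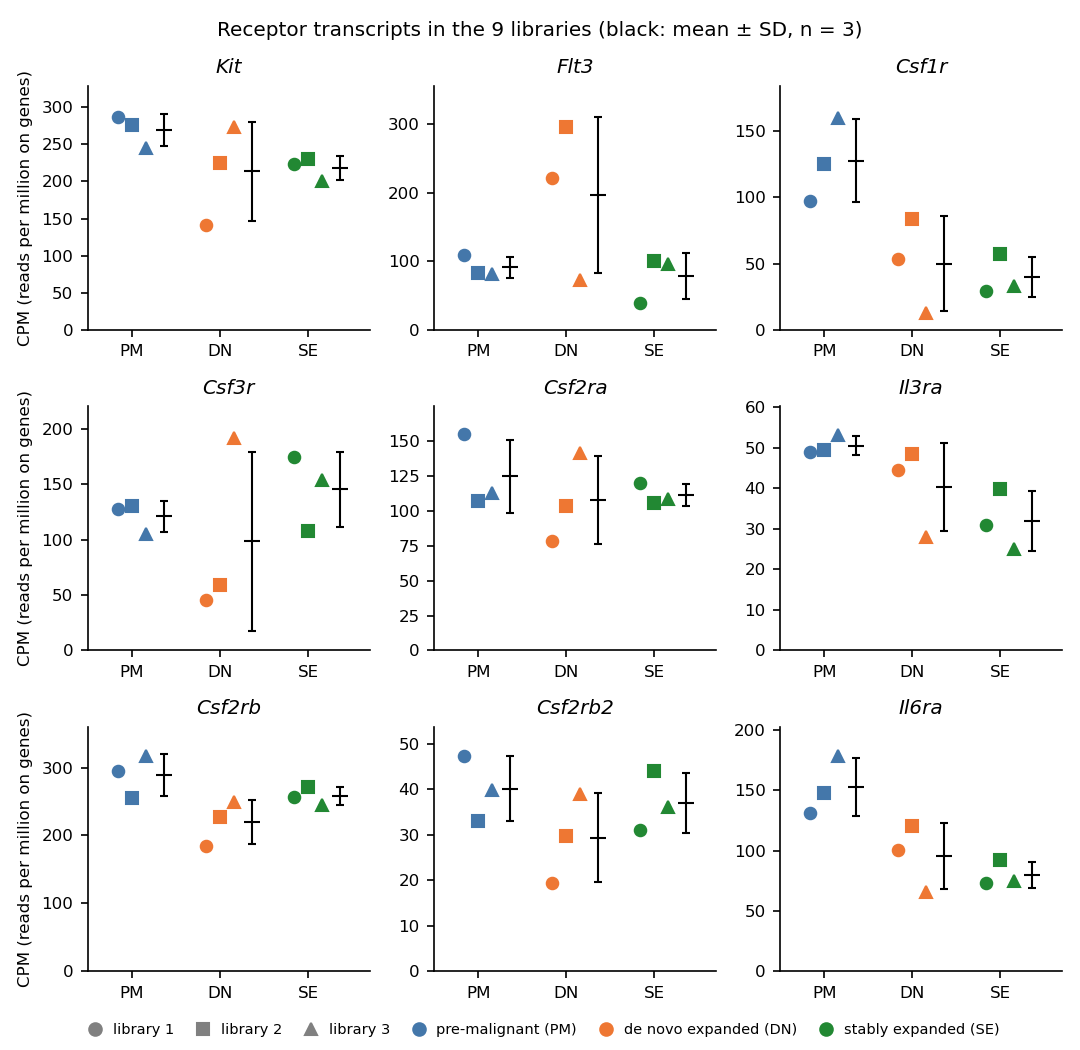
Level of each receptor in CPM (vertical axes, from 0) in the pre-malignant (PM), de novo expanded (DN) and stably expanded (SE) libraries. Points are single libraries, with a shape for libraries 1 to 3, and black bars give the mean ± SD (n = 3). *Csf1r* and *Il6ra* are highest in the 3 pre-malignant libraries, while *Flt3* is highest in de novo expanded libraries 1 and 2 and *Csf3r* in de novo expanded library 3.

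Each receptor was then compared between the groups with limma on log2(normalized count + 1), and a gene was called at a Benjamini-Hochberg adjusted p under 0.05 over all genes tested and at least 2-fold change. Both comparisons of an expanded group with the pre-malignant group share the pre-malignant libraries, so they are not independent of each other. The first comparison asks how clones that expanded late in an animal differ from the same clones before expansion, and was fitted unpaired. Of the 9 receptors, 0 were called between de novo expanded and pre-malignant clones by limma, edgeR and DESeq2, where limma called 0% of the 14195 genes tested, edgeR 0 of 14195 and DESeq2 42 of 41164. At an unadjusted p under 0.05, 3 receptors were lower in the de novo expanded clones, *Il6ra*, *Csf1r* and *Csf2rb*, where 11.3% of all genes had such a p and 5.26% were on that side. The groups did not overlap for *Csf1r*, *Il6ra* and *Il3ra*, again all lower, where 19.1% of all genes did not overlap and 8.5% were lower. In 8 of 9 receptors the fold change lay below 0 (49% of all genes), with a median log2 fold change of -0.38 over the receptors and 0.0079 over all genes tested. Without de novo expanded library 1 the median over the receptors was -0.20.

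The second comparison sets the clone that had expanded early and stayed expanded against the pre-malignant clones. Here *Csf1r* was called lower, 1 of the 9 receptors, where 2.75% of 13968 genes were called and 1.55% were called lower. Those 384 called genes fell to 6 of 13960 in 1 fit of all 9 libraries and to 5 of 13968 with the covariate described below for *Csf1r*. *Il6ra* and *Il3ra* also had an adjusted p under 0.05 but stayed under the 2-fold limit. At an unadjusted p under 0.05, 4 receptors were lower, where 25.4% of all genes had such a p and 12.3% were on that side, and the groups did not overlap in the same 4 (*Csf1r*, *Il6ra*, *Il3ra* and *Kit*), where 30.7% of all genes did not overlap and 14.6% were lower. In 8 of 9 receptors the fold change lay below 0 (49.5% of all genes). The median log2 fold change over the 9 receptors was -0.30, and -0.16 without pre-malignant library 1. Between stably and de novo expanded clones, limma, edgeR and DESeq2 called 0 receptors, 0 had an unadjusted p under 0.05 and 0 had groups that did not overlap, where 0.00727% of 13758 genes were called by limma (edgeR 1 of 13758, DESeq2 29 of 37490), 4.83% had such a p and 9.61% did not overlap. Here 4 of 9 fold changes lay below 0 (50.4% of all genes).

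**Figure D2:**
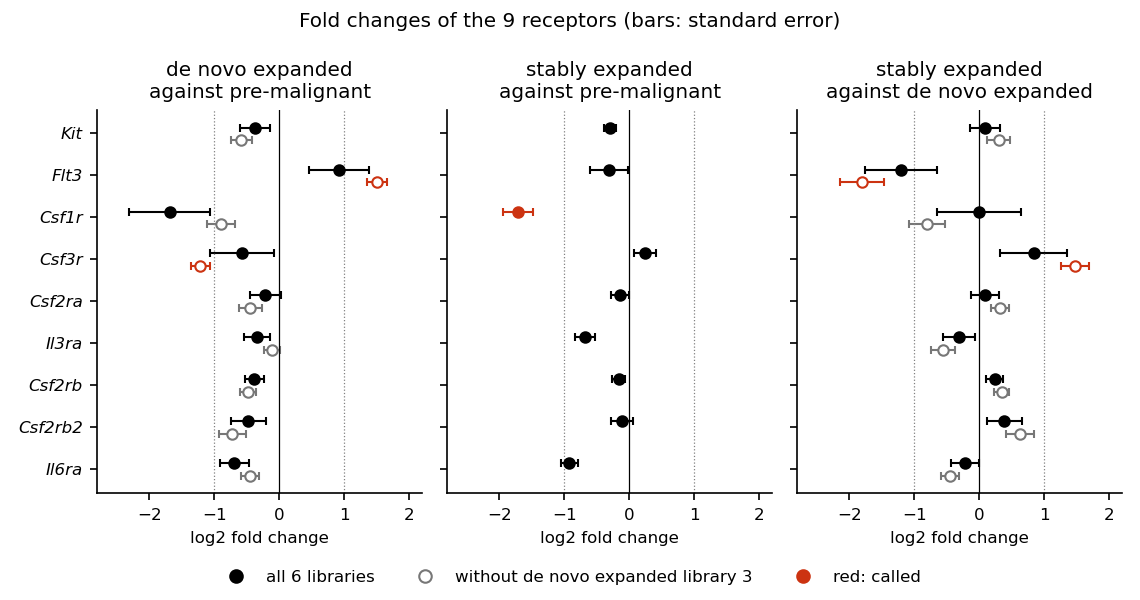
Log2 fold change of each receptor (horizontal axes) in the 3 comparisons, with the limma standard error as bars and the 2-fold limits as dotted lines. Filled points are fits of all 6 libraries, open points fits without de novo expanded library 3, and red marks called genes: *Csf1r* against the pre-malignant clones in the stably expanded group, and *Flt3* and *Csf3r* only where that library is left out.

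Among the tyrosine kinase receptors, *Csf1r* (ENSMUSG00000024621.16, chromosome 18, 61100598 to 61132149, plus strand, GRCm38) was the receptor with the widest range. It was at 97.6, 125 and 160.0 CPM in pre-malignant libraries 1 to 3, at 53.7, 83.8 and 12.5 CPM in the de novo expanded and at 29.1, 56.9 and 33.0 CPM in the stably expanded libraries. All 6 expanded libraries lay under all 3 pre-malignant ones, and de novo expanded library 3 was the lowest of the 9. In normalized counts it fell from 1727 ± 413 in the pre-malignant to 536 ± 193 in the stably expanded clones (SD, n = 3), a log2 fold change of -1.72 (standard error 0.23, limma adjusted p = 0.00412). The call was lost in 1 fit of all 9 libraries (log2 fold change -1.72, adjusted p = 0.161) and when the olfactory and vomeronasal receptor share of the reads was added as a covariate, an alternative chosen after seeing the data (-1.73, adjusted p = 0.219), and over all alternatives the adjusted p ranged from 5.52e-07 to 0.219. That share was 0.00833% to 0.0186% in the pre-malignant, 0.00385% to 0.0121% in the de novo expanded and 0.00219% to 0.00813% in the stably expanded libraries, and its part in the result was not tested beyond this fit. Between de novo expanded and pre-malignant clones the log2 fold change of *Csf1r* was -1.69 (standard error 0.62, limma adjusted p = 0.417), and without de novo expanded library 3 it was -0.89 (standard error 0.21, limma adjusted p = 0.0438), under the 2-fold limit.

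*Csf1r* overlaps *Hmgxb3* on the opposite strand, and the strand setting of the counting is not given in the sources used here. *Hmgxb3* was at 77.6 to 84.5 CPM in the pre-malignant, 68.8 to 75.3 CPM in the de novo expanded and 63.7 to 79.5 CPM in the stably expanded libraries. Its level thus covered a far narrower range than that of *Csf1r*. As *Csf1r* is best known from macrophages, the macrophage markers were read beside it. *C1qa*, *C1qb*, *C1qc* and *Cd5l* were each at 0.986 CPM or less in every library, and with *Cd68*, *Adgre1*, *Ly6c2*, *Ccr2* and *Vcam1* these 9 monocyte and macrophage markers summed to 513 to 697 CPM in the pre-malignant, 574 to 836 CPM in the de novo expanded and 663 to 816 CPM in the stably expanded libraries. The sums thus overlapped between the groups, and the lowest of them was that of a pre-malignant library. *Ly6c2* was the largest part of each sum, and single markers differed from it. *Ccr2* was at 65.4 to 92.1 CPM in the pre-malignant and 18.6 to 72.4 CPM in the stably expanded libraries, and at 197, 183 and 17.5 CPM in de novo expanded libraries 1 to 3. *Vcam1* was at 100.3, 12.4 and 13.6 CPM, at 141, 106 and 77.4 CPM and at 1.17, 6.75 and 167 CPM in the same order. The part of these markers in the *Csf1r* level was not tested.

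Some marker lists of other cells were, like *Csf1r*, *Il6ra* and *Il3ra*, lower in every expanded than in every pre-malignant library of a comparison. The B cell markers *Cd79a*, *Cd79b*, *Pax5*, *Ms4a1*, *Ighm* and *Ighd* (6 genes) summed to 215 to 256 CPM in the pre-malignant, 74.5 to 206 CPM in the de novo expanded and 85.1 to 103 CPM in the stably expanded libraries. None was at 0 throughout, and *Ighm*, the immunoglobulin heavy chain gene, made up most of each sum. *Cd79b* did not fall with the sum. It was at 4.66 to 10.1 CPM in the pre-malignant, 4.76 to 9.21 CPM in the de novo expanded and 9.73 to 17.8 CPM in the stably expanded libraries. The 7 erythroid markers, none at 0 throughout, summed to 16.6 to 32.4 CPM in the pre-malignant and 1.83 to 12.9 CPM in the de novo expanded libraries, and to 2.02 to 22.7 CPM in the stably expanded ones, which overlapped the pre-malignant range. The eosinophil, myeloid progenitor and neutrophil sums were higher in all stably expanded than in all pre-malignant libraries. The 6 eosinophil markers (*Ear1* and *Ear2* at 0) summed to 58.4 to 88.2 against 17.3 to 26.4 CPM. The myeloid progenitor markers summed to 11704 to 13784 against 8965 to 10358 CPM, and the neutrophil markers listed below to 525 to 4250 against 179 to 219 CPM. *Siglecf* made up most of each eosinophil sum, while *Epx* and *Il5ra*, at 0.479 CPM or less throughout, did not rise. *Mpo* was the largest part of each myeloid progenitor sum, while *Cd34* (54.9 to 82.6 against 87.8 to 136 CPM) and *Kit* were lower in every stably expanded library. The part of these markers in the receptor levels was not tested.

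*Kit* (ENSMUSG00000005672.12, chromosome 5, 75574916 to 75656722, plus strand) encodes the receptor on which the cells were sorted. It was at 287, 276 and 245 CPM in the pre-malignant, at 142, 225 and 274 CPM in the de novo expanded and at 224, 231 and 200.3 CPM in the stably expanded libraries. The stably expanded libraries all lay under the pre-malignant ones, whereas de novo expanded library 1 was the lowest of all and library 3 lay among the pre-malignant values. The log2 fold change was -0.30 between stably expanded and pre-malignant clones (standard error 0.096, limma adjusted p = 0.0795) and -0.37 between de novo expanded and pre-malignant clones (standard error 0.23, limma adjusted p = 0.563).

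*Flt3* (ENSMUSG00000042817.15, chromosome 5, 147330741 to 147400489, minus strand), the receptor for FLT3 ligand, separated the de novo expanded libraries from each other. It was at 109, 82.8 and 81.7 CPM in the pre-malignant, at 222, 296 and 73.3 CPM in the de novo expanded and at 39.9, 100.4 and 96.3 CPM in the stably expanded libraries. De novo expanded libraries 1 and 2 had the highest *Flt3* of all 9 libraries, while library 3 lay under every pre-malignant library. With all 6 libraries the log2 fold change between de novo expanded and pre-malignant clones was 0.92 (standard error 0.46, limma adjusted p = 0.496). Without de novo expanded library 3, *Flt3* was called higher at 1.51 (standard error 0.16, limma adjusted p = 0.00106), in a fit that called 214 of 14224 genes (1.5%), and over all alternatives its adjusted p ranged from 0.00106 to 0.981. That fit set 2 de novo expanded against 3 pre-malignant libraries. It left out a whole clone after expansion but kept its pre-malignant library, so the clones compared were no longer the same. Leaving out any other library of this comparison instead gave 0 called genes. Between stably expanded and pre-malignant clones the log2 fold change was -0.31 (standard error 0.29, limma adjusted p = 0.540). *Flt3* is also known from dendritic cells. The remaining 6 dendritic cell markers (*Siglech*, *Cd209a*, *Xcr1*, *Clec9a*, *Zbtb46*, *Ccr9*) summed to between 0.0643 and 1.92 CPM, and to 1.42 and 0.0643 CPM in the 2 libraries with the highest *Flt3*, and their part in the *Flt3* level was not tested.

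The sequence before the annotated start of *Flt3*, which was high in de novo expanded libraries 1 and 2 only, is shown with those of *Csf3r*, which differed among the same libraries, and *Il6ra*, which was lower in all expanded libraries. All come from the RefSeq promoter table on GRCm38.p6, which held 7 of the 9 receptors; *Csf1r* and *Csf2rb* were not among them. The *Flt3* (chr5:147400490-147400739) and *Il6ra* (chr3:89913197-89913446) stretches are the 250 bases upstream of the start, on the minus strand, and that of *Csf3r* (chr4:126024409-126024549, plus strand) is the 141 bases of that window that lie before the first exon in the files. Capitals mark matches, on either strand, to short core motifs of blood transcription factors: GAGGAA for PU.1 (*Spi1*), TGTGGT for RUNX, TGACAG for MEIS and CACCC for KLF factors, none of which overlapped another in these stretches.
Flt3: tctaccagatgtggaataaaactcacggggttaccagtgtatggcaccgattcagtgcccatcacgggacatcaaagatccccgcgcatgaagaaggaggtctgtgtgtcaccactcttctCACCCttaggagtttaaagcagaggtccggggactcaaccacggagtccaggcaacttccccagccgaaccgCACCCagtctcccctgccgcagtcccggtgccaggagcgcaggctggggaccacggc
Csf3r: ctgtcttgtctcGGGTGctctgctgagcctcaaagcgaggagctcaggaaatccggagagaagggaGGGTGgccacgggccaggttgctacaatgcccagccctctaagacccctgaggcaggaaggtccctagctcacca
Il6ra: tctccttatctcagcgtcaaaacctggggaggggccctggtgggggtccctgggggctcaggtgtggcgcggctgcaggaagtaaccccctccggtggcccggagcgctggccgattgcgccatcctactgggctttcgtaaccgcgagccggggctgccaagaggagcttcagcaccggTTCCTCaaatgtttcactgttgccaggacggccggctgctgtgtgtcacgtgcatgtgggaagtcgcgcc
The *Flt3* stretch held 2 CACCC matches, 129 and 57 bases before the start, and no match to the other 3 motifs. The *Csf3r* stretch held 2 matches to CACCC, read as GGGTG 238 and 184 bases before the RefSeq start, and no other. The *Il6ra* stretch held 1 match to GAGGAA, read as its reverse complement TTCCTC 70 bases before the start, and no other. Over 27025 promoters of the table, 51.3% of stretches of this length hold CACCC, 23.1% GAGGAA, 16.0% TGACAG and 14.2% TGTGGT on either strand. For stretches of 141 bases the shares are 32.9%, 13.9%, 9.54% and 8.25% in the same order. The matches describe the letters and mark no binding site.

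*Csf3r* (ENSMUSG00000028859.14, chromosome 4, 126024550 to 126044440, plus strand), the G-CSF receptor, was at 128, 130.1 and 105 CPM in the pre-malignant, at 45.2, 58.9 and 192 CPM in the de novo expanded and at 174, 108 and 154 CPM in the stably expanded libraries. De novo expanded libraries 1 and 2 held the lowest values of all and library 3 the highest. In the fit without de novo expanded library 3 described for *Flt3*, *Csf3r* was called lower in the de novo expanded than in the pre-malignant clones, with a log2 fold change of -1.22 (standard error 0.14, limma adjusted p = 0.0018). With all 6 libraries it was -0.57 (standard error 0.49, limma adjusted p = 0.680), and over all alternatives the adjusted p ranged from 0.0018 to 0.981. Between stably expanded and pre-malignant clones it was 0.25 (standard error 0.17, limma adjusted p = 0.400).

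The neutrophil markers *S100a8*, *S100a9*, *Ltf*, *Camp*, *Ngp*, *Cxcr2*, *Mmp8* and *Mmp9* summed to 179 to 219 CPM in the pre-malignant, 147 to 559 CPM in the de novo expanded and 525 to 4250 CPM in the stably expanded libraries, none of them at 0 throughout. *Ngp* was the largest part of each sum. *Mmp8* did not rise with the sum, at 1.16 to 1.44 CPM in the pre-malignant and 0.261 to 1.35 CPM in the stably expanded libraries. *Mmp9* was at 0.718 CPM or less throughout. Within the de novo expanded group the primary granule gene *Mpo* was at 1637, 2658 and 15796 CPM and *Elane* at 148, 267 and 2148 CPM in libraries 1 to 3, so both were highest in the library with the highest *Csf3r* and the lowest *Flt3* and *Csf1r* of that group. The part of these markers in the receptor levels was not tested.

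The log2 ratio of *Csf3r* to *Csf1r* within a library does not depend on its depth. It was 0.39, 0.05 and -0.61 in the pre-malignant, -0.25, -0.51 and 3.93 in the de novo expanded and 2.58, 0.92 and 2.23 in the stably expanded libraries. All stably expanded libraries were above all pre-malignant ones, with a mean difference of 1.96 (exact two-sided permutation p = 0.1, n = 3 per group, the smallest p that 3 against 3 can give). De novo expanded libraries 1 and 2 lay within the pre-malignant range, and library 3 had the highest ratio of all. The mean difference of the de novo expanded from the pre-malignant libraries, 1.11 (exact permutation p = 0.8, n = 3 per group), rested on that library and was -0.32 without it.

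**Figure D3:**
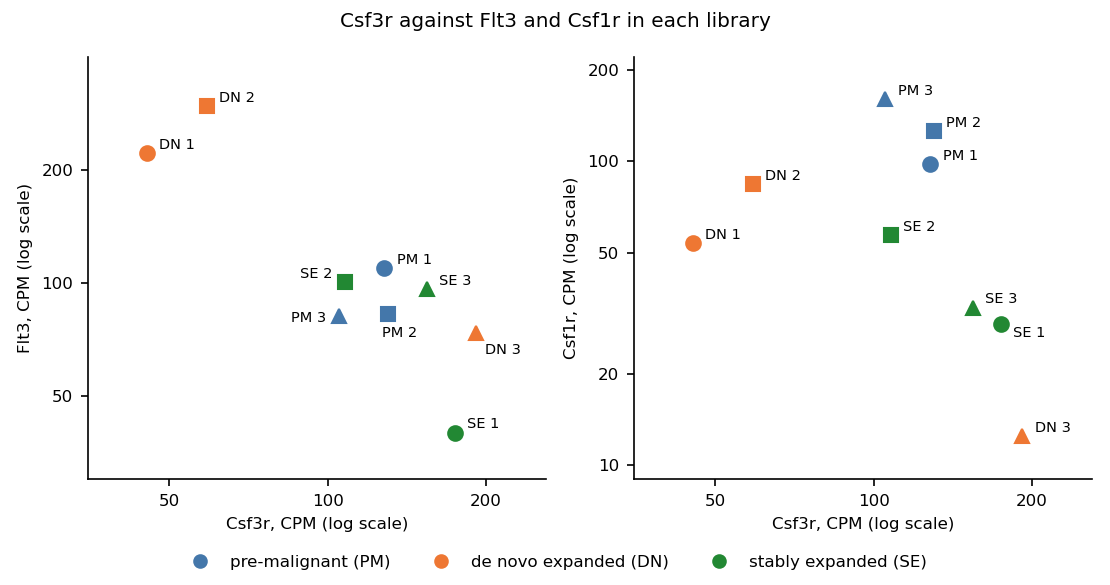
*Flt3* (left) and *Csf1r* (right) against *Csf3r* in each library, in CPM on log axes. Points are labelled by group and library number. De novo expanded libraries 1 and 2 (DN 1, DN 2) sit apart at low *Csf3r* (45.2 and 58.9 CPM) and high *Flt3* (222 and 296 CPM), while DN 3 combines the highest *Csf3r* with the lowest *Csf1r*.

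Of the ligand-binding chains, *Il6ra* (ENSMUSG00000027947.11, chromosome 3, 89864059 to 89913196, minus strand) was at 131, 148 and 179 CPM in the pre-malignant, at 101, 120.4 and 65.6 CPM in the de novo expanded and at 72.9, 92.6 and 74.6 CPM in the stably expanded libraries. As with *Csf1r*, all expanded libraries lay under all pre-malignant ones. In normalized counts it fell from 2065 ± 315 to 1085 ± 126 (SD, n = 3) between pre-malignant and stably expanded clones, a log2 fold change of -0.92 (standard error 0.13, limma adjusted p = 0.00455). This was under the 2-fold limit, which it passed without pre-malignant library 1 (-1.02) or without stably expanded library 2 (-1.02). Over all alternatives its adjusted p ranged from 4.41e-08 to 0.188. Between de novo expanded and pre-malignant clones the log2 fold change was -0.69 (standard error 0.22, limma adjusted p = 0.390).

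*Il3ra* (ENSMUSG00000068758.8, chromosome 14, 14346275 to 14356011, plus strand), the IL-3 binding chain, was at 48.9, 49.3 and 53.2 CPM in the pre-malignant, at 44.6, 48.5 and 27.9 CPM in the de novo expanded and at 30.9, 39.8 and 24.95 CPM in the stably expanded libraries. The pre-malignant libraries differed little from each other and lay above every expanded library, though de novo expanded library 2 came close to them. It fell by 0.68 on the log2 scale between pre-malignant and stably expanded clones (standard error 0.16, limma adjusted p = 0.0269), from 684 ± 30.5 to 432 ± 92.9 normalized counts (SD, n = 3). Its adjusted p was 0.0697 to 0.0840 without pre-malignant library 1, 2 or 3 or stably expanded library 1, and ranged from 0.0087 to 0.531 over all alternatives. The log2 fold change between de novo expanded and pre-malignant clones was -0.35 (standard error 0.20, limma adjusted p = 0.547).

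*Csf2ra* (ENSMUSG00000059326.7, chromosome 19, 61223957 to 61228429, minus strand), the GM-CSF binding chain, was at 155, 107 and 113 CPM in the pre-malignant, at 78.6, 104 and 142 CPM in the de novo expanded and at 120.4, 106 and 109 CPM in the stably expanded libraries. These values overlapped in all 3 comparisons, with log2 fold changes of -0.22 and -0.14 for the de novo and stably expanded against the pre-malignant clones (standard errors 0.24 and 0.14).

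The beta chains *Csf2rb* (ENSMUSG00000071713.6, chromosome 15, 78325752 to 78353847, plus strand) and *Csf2rb2* (ENSMUSG00000071714.7, chromosome 15, 78282507 to 78305721, minus strand) are neighbouring copies with closely similar sequence, so reads could be split between them or lost in the counting, and their separate levels are uncertain. *Csf2rb* was at 295, 256 and 317 CPM in the pre-malignant, at 185, 227 and 249 CPM in the de novo expanded and at 257, 271 and 245 CPM in the stably expanded libraries. *Csf2rb2* was at 47.4, 33.1 and 39.8 CPM, at 19.3, 29.7 and 38.9 CPM and at 30.9, 44.1 and 36.0 CPM in the same order. Both were lowest in de novo expanded library 1. Their log2 fold changes were -0.38 and -0.48 for the de novo expanded against the pre-malignant clones (standard errors 0.14 and 0.27, limma adjusted p = 0.417 and 0.539) and -0.16 and -0.11 for the stably expanded against the pre-malignant clones (standard errors 0.099 and 0.17, limma adjusted p = 0.345 and 0.727).

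The log2 ratio of *Csf2rb2* to *Csf2rb* sets these copies against each other. It was taken on normalized counts, not per kilobase, and the uncertainty of their separate levels applies to it too. It averaged -2.86 ± 0.19 in the pre-malignant, -2.95 ± 0.29 in the de novo expanded and -2.81 ± 0.22 in the stably expanded libraries (SD, n = 3). The differences between groups were -0.10, 0.049 and 0.14 for de novo expanded and stably expanded against pre-malignant and for stably against de novo expanded clones (exact two-sided permutation p = 0.8, 0.9 and 0.6, n = 3 per group), each smaller than the spread within the groups.

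Between the expanded groups, the receptors with the largest differences were again *Flt3* and *Csf3r*. In stably against de novo expanded clones, *Flt3* had a log2 fold change of -1.21 (standard error 0.55, limma adjusted p = 0.891) and *Csf3r* of 0.84 (standard error 0.51, limma adjusted p = 0.891). *Csf1r* was at -0.0075 (standard error 0.65), so a difference of over 2-fold either way lay within 2 standard errors. The fold changes of the remaining 6 receptors lay between -0.32 for *Il3ra* and 0.39 for *Csf2rb2*. Without de novo expanded library 3, *Flt3* was called lower at -1.80 (standard error 0.34, limma adjusted p = 0.0161) and *Csf3r* higher at 1.48 (standard error 0.21, limma adjusted p = 0.00544), in a fit that called 508 of 13756 genes (3.69%). Over all alternatives the adjusted p ranged from 0.0161 to 1.00 for *Flt3* and from 0.00544 to 1.00 for *Csf3r*.

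Of the 9 ligands of these receptors, 2 passed the filter on low values. *Kitl*, *Il34*, *Csf2*, *Csf3*, *Il3*, *Il5* and *Il6* had at most 7 reads in any library, where a count of 0 allows up to 3 reads. *Csf1*, the ligand of CSF1R, was at 271, 256 and 372 normalized counts in the pre-malignant and at 60.8, 142 and 95.6 in the stably expanded libraries, which did not overlap. It was called lower with a log2 fold change of -1.64 (standard error 0.29, limma adjusted p = 0.0103), so the receptor and its ligand were both called in this comparison. *Flt3l* had log2 fold changes of 0.21, -0.15 and -0.34 in the 3 comparisons (standard errors 0.35, 0.38 and 0.30).

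Among 19 tested receptors of other blood cytokines, 2 were called in stably expanded against pre-malignant clones, both lower. In this comparison 2.75% of all genes tested were called and 1.55% were called lower, also for the lists that follow. *Il6st*, the signalling partner of IL6RA, was at 995, 1216 and 1482 normalized counts in the pre-malignant and at 318, 726 and 446 in the stably expanded libraries, which did not overlap (log2 fold change -1.37, standard error 0.25, limma adjusted p = 0.0116). *Il10ra*, the binding chain for IL-10, had a log2 fold change of -1.57 (standard error 0.31, limma adjusted p = 0.0149). Of these calls 0 held without pre-malignant library 2 and 1 (*Il6st*) without library 3. Between de novo expanded and pre-malignant clones 0 of 20 were called. There *Il6st* was at 1287 and 1431 normalized counts in de novo expanded libraries 1 and 2 and at 199 in library 3, and the largest fold change with an unadjusted p under 0.05 was that of *Tgfbr2*, a TGF-beta receptor (0.81, limma adjusted p = 0.384).

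Of 30 kinases and adaptors that act under such receptors, 2 were called, both higher in stably expanded than in pre-malignant clones. Among them was *Fgr*, a SRC family kinase of myeloid cells, with a log2 fold change of 2.23 (standard error 0.50, limma adjusted p = 0.0247). Leaving out each of the 6 libraries in turn, *Fgr* kept its call in 2 fits, without pre-malignant library 1 and without stably expanded library 2. The median over the 30 genes was 0.02 in that comparison, and between -0.0065 and 0.03 over the left-out libraries. It was -0.11 in de novo expanded against pre-malignant clones (-0.057 without de novo expanded library 1 and -0.27 without library 3). There 0 were called, and 4 were lower and 0 higher at an unadjusted p under 0.05. Of all genes, 11.3% had such a p in that comparison and 5.26% were lower. In stably against de novo expanded clones 0 were called, and *Fgr* had the largest fold change with such a p (1.73, limma adjusted p = 0.891).

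Of 24 negative regulators of receptor signalling, *Socs1*, a feedback inhibitor of JAK kinases, was called lower in stably expanded than in pre-malignant clones (-1.04, standard error 0.28, limma adjusted p = 0.0479). Leaving out each library in turn, *Socs1* was called in 0 of 6 fits. In de novo expanded against pre-malignant clones the related *Socs3* had the largest fold change with an unadjusted p under 0.05 (-2.68, limma adjusted p = 0.414).

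Of 17 tested STAT3 and STAT5 target genes, 3 were called in stably expanded against pre-malignant clones, all lower, *Socs1* again, *Pim1* and *Osm*. *Pim1*, a survival kinase induced by cytokines, was at 986, 1090 and 1023 normalized counts in the pre-malignant and at 372, 449 and 519 in the stably expanded libraries (log2 fold change -1.22, standard error 0.14, limma adjusted p = 0.00284). *Osm*, which encodes the cytokine oncostatin M, had a log2 fold change of -1.48 (standard error 0.23, limma adjusted p = 0.0073). The median over the 17 genes was -0.54, against -0.28 in de novo expanded against pre-malignant clones, where 0 were called. Leaving out de novo expanded library 1 moved the latter median to -0.94, and leaving out library 3 moved it to -0.029. *Pim1* and *Osm* were called without each of the 6 libraries in turn.

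Of 16 tested transcription factors known for receptor genes, 3 were called in stably expanded against pre-malignant clones. *Cebpe*, a factor of late granulocyte maturation, was called higher (log2 fold change 1.66, standard error 0.21, limma adjusted p = 0.00346). *Irf8*, a factor of monocyte and dendritic cell fate, was called lower (-1.35, standard error 0.25, limma adjusted p = 0.0126), as was *Klf4*, a factor of monocyte differentiation (-1.93, standard error 0.37, limma adjusted p = 0.0136). Without pre-malignant library 2 only *Cebpe* of these was called, and without library 3 only *Cebpe* and *Irf8*. In de novo expanded libraries 1 to 3 *Irf8* was at 5495, 6038 and 906 and *Cebpe* at 120, 226 and 1283 normalized counts, so library 3 was the lowest of that group for *Irf8* and the highest for *Cebpe*. *Klf4* was at 232, 452 and 64.6 normalized counts there and had a log2 fold change of -1.72 against the pre-malignant clones (limma adjusted p = 0.414). Of 3 tested genes of receptor shedding 0 were called in any comparison, and *Rhbdf2*, a cofactor of the sheddase ADAM17, had log2 fold changes of -0.47 and -0.39 against the pre-malignant clones (limma adjusted p = 0.437 and 0.139).

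The receptors and lists together held 12 genes called in stably expanded against pre-malignant clones. Of these, 0 were called in 1 fit of all 9 libraries (limma adjusted p from 0.0899 to 0.282) and 0 with the covariate used for *Csf1r* (0.192 to 0.591), though the fold change of each kept its direction and stayed over 2-fold in both. Both refits of the lists were chosen after seeing the data. In the other 2 comparisons limma called 0 genes of these lists with all libraries. In stably against de novo expanded clones the largest fold change with an unadjusted p under 0.05 within its own list was that of the interferon receptor gene *Ifnar1* (-0.53) for the other cytokine receptors, of the phosphatase gene *Ptpn1* (0.26) for the negative regulators, of *Id1* (1.08) for the STAT targets and of *Cebpe* (2.15) for the transcription factors, each with a limma adjusted p of 0.891. Without de novo expanded library 3, *Socs2*, *Spred1*, *Ccnd2* and *Ccnd1* were called higher and *Cebpe* and *Cebpd* lower in the remaining de novo expanded clones than in the pre-malignant clones, all of which were kept. That fit called 1.5% of all genes tested. Without the same library the calls in the stably against the de novo expanded clones included *Csf1*, *Il6st*, *Ccnd2*, *Socs2*, *Spred1* and *Irf8*, all lower, and *Fgr*, *Sla*, *Gfi1*, *Cebpe* and *Cebpd*, all higher. There 3.69% of all genes tested were called.

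**Figure D4:**
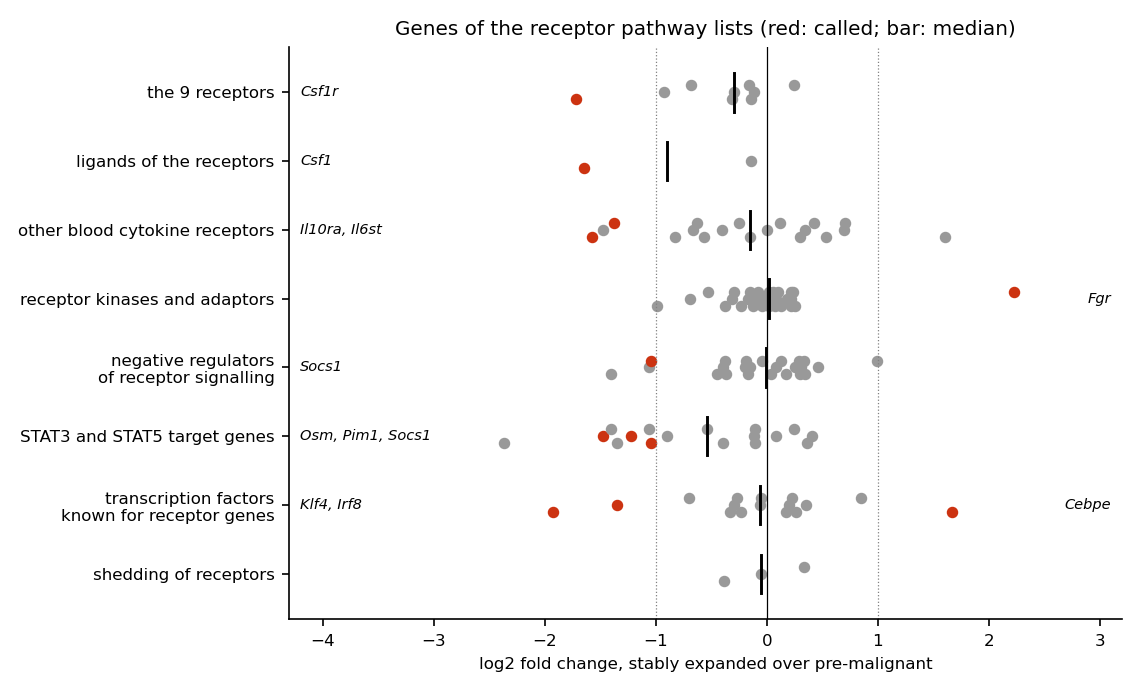
Log2 fold change in stably expanded over pre-malignant clones (horizontal axis) for the tested genes of each pathway list (vertical axis). Each point is a gene, red where called, with the names at the side, and 1 called gene that is not reported here is not drawn; black bars are list medians and dotted lines the 2-fold limits. The calls on the lower side include *Csf1r*, its ligand *Csf1* and *Il6st*, those on the higher side *Fgr* and *Cebpe*.

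Over the 9 libraries, the gene whose centred log2(CPM + 1) was most like that of *Csf1r* among 9769 genes was *Xdh* (root mean square difference 0.21), followed by *Klf4* (0.25), the factor called above. For *Csf3r* they were *Plcb2* (0.13) and *Fam160a2* (0.16), and for *Flt3* *Capn5* and *Gna14* (0.29 each). For *Kit* they were *Mxd4* (0.072) and *Utrn* (0.089), for *Il6ra* *I830077J02Rik* (0.11) and *Themis2* (0.12), and for *Il3ra* *Smim14* (0.10) and *Plekhg2* (0.11). *Plgrkt* (0.045) and *Tdrd3* (0.091) were most like *Csf2ra*, *Rnf19b* (0.059) and *Abcd2* (0.084) most like *Csf2rb*, and *Smpdl3a* (0.14) most like *Csf2rb2*. The root mean square of each receptor's own centred values was 1.07 for *Csf1r*, 0.80 for *Flt3* and 0.65 for *Csf3r*. For the other receptors it lay between 0.21 for *Csf2rb* and 0.47 for *Il6ra*. A small difference for a receptor that varied little therefore need not be a closer likeness.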

How the data were processed

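RNA-Seq of 9 libraries was processed by the authors with nf-core/rnaseq (Trim Galore 0.6.4, STAR 2.6.1d, featureCounts 1.6.4 per the labels) on GRCm38.p6 with GENCODE release M25. The authors deposited 3 tables, 1 per comparison, in which the read counts of 6 libraries are divided by DESeq2 size factors (normalized counts, a signal per gene). Their columns of fold changes, p-values and test statistics were not used. Whole reads were recovered from the normalized counts for at least 99.99% of nonzero values (within 0.05 reads), and CPM were computed from them. A limit of 3 reads covers counting error only.

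Genes averaging 10 or more normalized counts over the 6 libraries of a comparison were tested two-sided with limma 3.58.1 (trend) on log2(normalized count + 1) in R 4.3.3, with Benjamini-Hochberg adjustment over all genes tested. Fold changes are on this scale. Alternatives were pseudocounts of 0.1 and 5, no filter or a minimum of 50, total-read scaling, quantile normalization, edgeR 4.0.16, DESeq2 1.42.0, 1 fit of all libraries, no fold limit and leaving out each library, with a covariate and the alternatives for the lists added after seeing the data. The fit was also run on simulated data with independent libraries. These held no clones, mice or deviating library, so they do not test the effect of those. The receptors and lists were chosen with earlier results of these data known. Named genes are the 9 receptors, every called list gene, otherwise the list gene with the largest fold change among those with an unadjusted p under 0.05, and the 2 most alike genes per receptor. Some genes that this rule names, and 2 cell type markers, are not reported here. Figures were drawn with matplotlib 3.10.9.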

Additional observations from a re-analysis of the deposited data

How the results depend on the processing

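No paired analysis was run because the labels give a group but no mouse or clone for the columns of the tables. Of 9 receptors, 0 were called between de novo expanded and pre-malignant clones under every alternative run except without de novo expanded library 3 (2 called), a range of 0 to 2 over the left-out libraries, and the count in stably against de novo expanded clones ranged from 0 to 2 in the same way. Against 1 called in stably expanded and pre-malignant clones, 0 were called in 1 fit of all 9 libraries and with the olfactory and vomeronasal receptor share as a covariate, 3 without a fold limit (*Csf1r*, *Il6ra*, *Il3ra*), and 1 to 2 over the left-out libraries. The log2 ratio of *Csf3r* to *Csf1r* of de novo expanded over pre-malignant clones ranged from -0.32 to 1.90, and that of *Csf2rb2* to *Csf2rb* from -0.23 to 0.055 there, from -0.047 to 0.17 for stably expanded over pre-malignant and from -0.0058 to 0.28 for stably over de novo expanded clones. With the covariate, uncalled fold changes changed sign for *Flt3* (0.28) in stably expanded against pre-malignant clones, and for *Kit* (-0.038), *Csf1r* (0.079) and *Csf2ra* (-0.016) in stably against de novo expanded clones. Over the left-out libraries the first of these comparisons ranged from -0.52 to 0.12 for *Flt3*, -0.25 to 0.034 for *Csf2ra* and -0.25 to 0.027 for *Csf2rb2*, and the second from -0.18 to 0.30 for *Kit*, -0.81 to 0.55 for *Csf1r* and -0.12 to 0.32 for *Csf2ra*. The cause was not tested. Each receptor had 191 reads or more in every library.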
